A study of Homo sapiens with 18 samples.

Results

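The genes described here are 9 genes whose products are hormones of the islet and gut or are tied to them: *INS*, *GCG*, *SST*, *GHRL*, *PYY*, *PPY*, *IAPP*, *TPH1* and *TTR*. They were chosen by symbol, and 8 of the 9 have at least 1 row in the deposited table, which lists 21944 genes. *PPY* has no row at any time. The RNA came from human pancreatic progenitors at day 19 of differentiation that were dissociated and reseeded on laminin-411 (LN411) or fibronectin (FN) and collected 3, 6 or 24 h later. The 6 groups (FN at 3 h, FN at 6 h, FN at 24 h, LN411 at 3 h, LN411 at 6 h and LN411 at 24 h) hold 3 samples each, 18 in all. The labels name HUES4, a human embryonic stem cell line, as the cell line, whereas their culture protocol names SA121-derived NGN3-GFP cells, another such line, in which green fluorescent protein reports *NEUROG3*. The study also gives NGN3-GFP cells for this experiment. The cells were dissociated with accutase before reseeding in both arms, and nothing in the labels says whether samples with the same number share a differentiation.

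The only quantity used here is the authors' mean normalized count, 1 value per gene that averages over both matrices and all 3 times. It has no standard deviation, it cannot show a difference between LN411 and FN or between times, and the depth of single libraries is unknown. A gene's value was the same at each time at which it was listed, with a largest relative gap of 4.89e-07. The other values in the table are the authors' own comparisons of LN411 with FN and were not used. In these bulk samples, fewer hormone-producing cells and less hormone RNA per cell cannot be told apart.

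Each islet hormone is the main product of one endocrine cell type: insulin and its companion islet amyloid polypeptide (*IAPP*) of beta cells, glucagon (*GCG*) of alpha cells, somatostatin (*SST*) of delta cells, ghrelin (*GHRL*) of epsilon cells and pancreatic polypeptide (*PPY*) of PP cells. Peptide YY (*PYY*) and the *GCG* product GLP-1 are also made by enteroendocrine cells, and *TPH1* encodes tryptophan hydroxylase 1, the first enzyme of serotonin synthesis in enterochromaffin cells. *TTR* encodes transthyretin, a carrier of thyroxine and of retinol-binding protein that is made in the liver and choroid plexus and also in islet cells. The peptide hormones are translated as longer precursors, which convertases cut and other enzymes trim in secretory granules.

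The bases before the start site are shown for *SST*, which had the highest level of the peptide hormone genes among the 9, and for *INS* and *GCG*, the 2 classical islet hormones, which lay below the median of all genes per kb. Each run holds the 250 bases upstream of the RefSeq start (GRCh38.p14), 5′ to 3′ on the gene's own strand, and the capitals mark the letters TATAAA and TGACG on either strand. The windows are chr3:187670395-187670644, chr11:2161210-2161459 and chr2:162152248-162152497, all on the minus strand. In the GENCODE v44 annotation, used below for lengths, *INS* begins at 2161221 and *GCG* at 162152404. Part of the *INS* and *GCG* windows therefore lies within the gene as annotated there.
*SST*: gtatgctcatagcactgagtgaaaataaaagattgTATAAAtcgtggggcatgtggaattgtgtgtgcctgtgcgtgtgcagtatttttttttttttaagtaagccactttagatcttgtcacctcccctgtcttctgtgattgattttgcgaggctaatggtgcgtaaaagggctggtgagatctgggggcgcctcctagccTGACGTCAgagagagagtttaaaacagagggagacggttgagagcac
*INS*: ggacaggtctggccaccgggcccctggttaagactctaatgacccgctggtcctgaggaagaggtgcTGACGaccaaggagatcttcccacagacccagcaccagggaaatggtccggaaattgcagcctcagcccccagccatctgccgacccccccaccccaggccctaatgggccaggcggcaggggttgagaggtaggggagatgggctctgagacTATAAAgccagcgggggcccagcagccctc
*GCG*: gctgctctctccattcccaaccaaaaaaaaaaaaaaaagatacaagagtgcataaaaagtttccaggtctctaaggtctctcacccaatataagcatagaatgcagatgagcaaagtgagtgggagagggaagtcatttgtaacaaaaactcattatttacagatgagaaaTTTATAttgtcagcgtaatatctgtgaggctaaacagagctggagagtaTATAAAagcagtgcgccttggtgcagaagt

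The match of TATAAA nearest to the RefSeq start begins 30 bases upstream in both *INS* and *GCG* and 215 bases upstream in *SST*. The same letters stand in 10.7% of the 35116 upstream windows of that length, read on both strands, and in 5 of the 11 windows of hormone genes. These 11 windows belong to the 8 hormone genes that matched by symbol, with a further window for *IAPP*, *PPY* and *PYY*. The windows of *PPY* overlap, and their matches of TATAAA, 31 and 233 bases upstream of their own starts, are the same site. Of these 8 genes, 4 have the letters in a window. They include *PPY*, which has no row in the deposited table, and lack *TTR*, for which no window was found by symbol. In *SST*, TGACG on one strand overlaps its reverse complement on the other, and the 2 matches together spell TGACGTCA. TGACG occurs on either strand in 21.2% of all windows and in 3 of the 11 windows of hormone genes, from *SST*, *INS* and *PYY*. These are matches of letters and not measured sites, and factor binding was not measured.

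Only *TTR* and *SST* stood above the middle of all genes. To compare genes, the mean normalized count was divided by the length in kb of the longest GENCODE v44 transcript. *TTR* had a mean normalized count of 57267.5 and 59903 per kb, and 23 of the 21861 genes with a length were higher per kb. *SST* had a mean normalized count of 581.3 and 958 per kb, higher than 85.0% of those genes. Its standing depended on the measure. Per kb of coding sequence *SST* was higher than 69.8% of 15359 genes, and before division by length higher than 56.6% of listed genes. The median gene had 99.6 per kb of the longest transcript, and the other 6 listed hormone genes lay below it.

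The next was *GHRL*, with a mean normalized count of 60.4 and 42.2 per kb, higher than 39.1% of genes. *PYY* followed with a mean normalized count of 17.4 and 16.6 per kb. The 2 hormones that raise and lower blood glucose were close to it per kb. *GCG* had a mean normalized count of 16.3 and 14.5 per kb, and *INS* had 8.32 and 13.0 per kb. *IAPP*, which beta cells secrete with insulin, had a mean normalized count of 23.1 but 11.5 per kb because its longest transcript is 2015 bases long, against 639 bases for *INS*. *TPH1*, with a transcript of 5325 bases, had a mean normalized count of 20.1 and the lowest level per kb, 3.77.

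Per kb of the longest transcript, *TTR* was 62.5 times as high as *SST*. On the same measure, *SST* was 22.7 times as high as *GHRL*, 65.9 times as high as *GCG* and 73.6 times as high as *INS*. *SST* alone made up 82.2% of the summed mean normalized counts of the 6 listed peptide hormone genes, *INS*, *GCG*, *SST*, *GHRL*, *PYY* and *IAPP*. The neighbours *PYY*, *GCG*, *INS* and *IAPP* differed by ratios of 1.14, 1.12 and 1.13 per kb in that order. Whether such neighbours differ beyond the spread between samples could not be assessed, as the table gives 1 mean per gene. *TTR* took 0.108% of all mean normalized counts, and the other 7 listed genes took 0.00137% together.

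**Figure D1:**
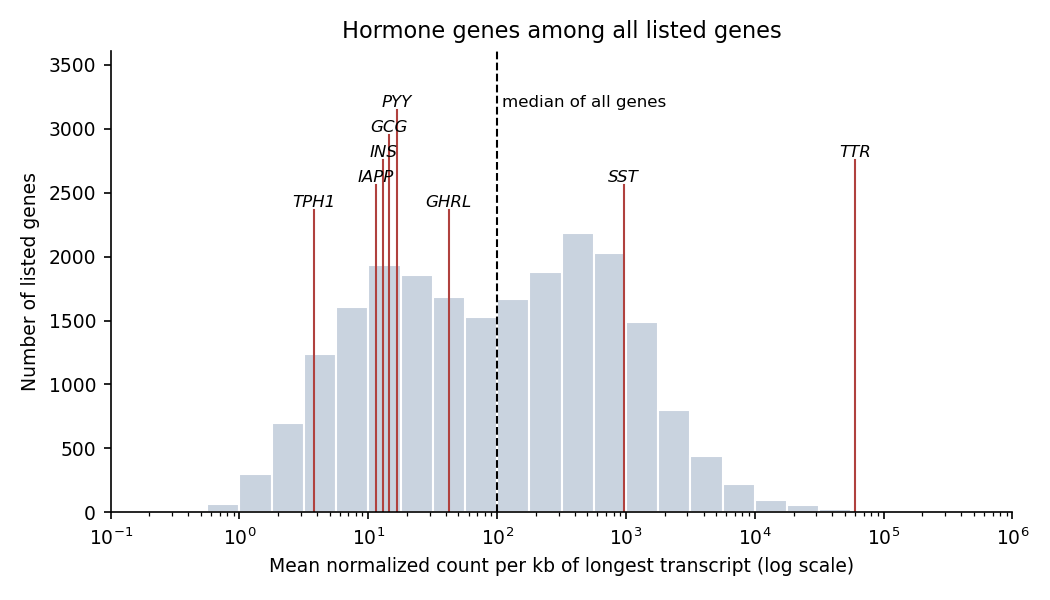
Mean normalized count per kb of the longest transcript on a log axis, with bars for the number of listed genes in each bin, red lines for the 8 listed hormone genes and a dashed line at the median of all genes, 99.6. *TTR* lies at the far right and *SST* right of the median, while the other 6 genes lie left of it between 3.77 and 42.2.

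The places of *TTR*, *SST*, *GHRL* and *TPH1* in this order, 1, 2, 3 and 8, were the same with 4 measures of gene length. The order of the 4 genes between *GHRL* and *TPH1* was not. *IAPP* was the highest of the 4 per kb of coding sequence, with 86.6 against 25.2 for *INS*. Its mean normalized count was also the highest of the 4, 23.1 against 8.32 for *INS*. The coding sequences of *IAPP* and *INS* are 267 and 330 bases long. *INS* was the highest of the 4, with 20.3, when only exonic bases that no other gene shares were counted. *GCG* was the lowest of the 4 per kb of the union of exons, with 6.87. The ratios between the highest genes also depended on the measure of length. *TTR* over *SST* ranged from 27.5 to 77.7, and *SST* over *GHRL* from 9.7 to 32.8.

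**Figure D2:**
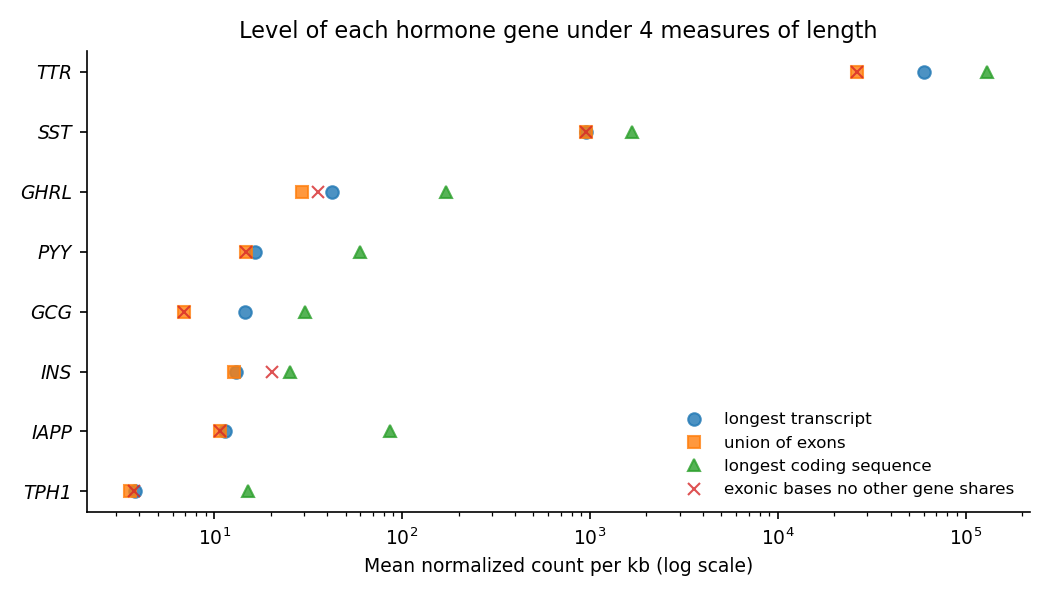
Mean normalized count per kb on a log axis for each listed hormone gene, with a symbol for each of 4 measures of length. The symbols of *TTR*, *SST* and *GHRL* keep their order under each measure, and those of *PYY*, *GCG*, *INS* and *IAPP* interleave.

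*INS* was the only listed hormone gene with a mean normalized count under 10, the limit set here for a low mean, which 11.9% of the listed genes did not reach either. A mean of 8.32 amounts to 149.7 normalized counts if it was taken over the 18 libraries. Under a limit of 50, *GCG*, *PYY*, *TPH1* and *IAPP* would also be low, which gives 5 of the 8 genes against 33.5% of the listed genes.

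The 3 genes without a row at some times, *INS*, *GCG* and *IAPP*, were among these 5. *TTR*, *SST*, *GHRL*, *PYY* and *TPH1* have a row at 3, 6 and 24 h, as do 85.1% of all listed genes. *IAPP* is listed at 3 and 6 h only, *GCG* at 6 and 24 h only, and *INS* at 24 h only. Among the 2615 genes with means under 10, as for *INS*, 39.6% have a row at 3 h, 71.5% at 6 h and 36.0% at 24 h, and 16.2% are listed at 24 h alone. Of the 2323 genes between 10 and 20, where *GCG* and *PYY* lie, 70.0% are listed at all 3 times and 94.4% at 3 h, the time at which *GCG* has no row. Of the 2423 genes between 20 and 50, where *IAPP* and *TPH1* lie, 94.8% are listed at 24 h, the time at which *IAPP* has no row. The rule by which genes were listed is not given in the sources used here. A missing row therefore says neither that the RNA was absent at that time nor that it changed, and the same holds for *PPY*.

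**Figure D3:**
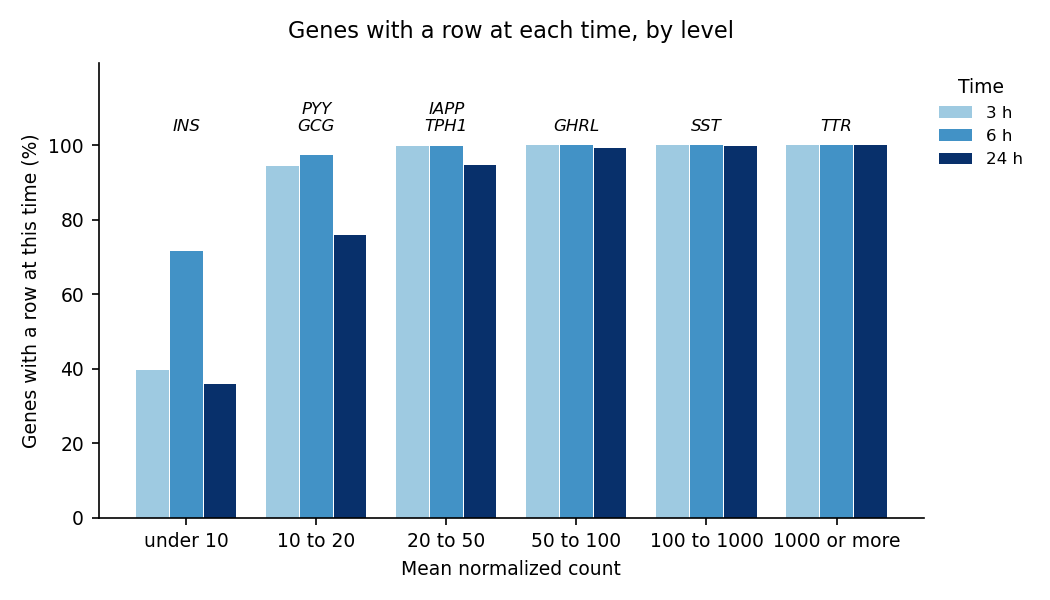
Bars give the percentage of genes with a row at 3, 6 and 24 h, grouped by mean normalized count, with the hormone genes of each range named above. Under 10, where *INS* lies, the bars stand at 39.6, 71.5 and 36.0%, and from 50 upward they are at 99.2% or more.

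Shared exons bear on the level of *INS*. *INS* (ENSG00000254647, chromosome 11 of GRCh38, 2159779 to 2161221) shares 246 of its 656 exonic bases, or 37.5%, with *INS-IGF2* (ENSG00000129965), a gene annotated on the same strand that joins the first part of *INS* to *IGF2*. Its first exon begins 12 bases downstream of the first base of *INS*. STAR, which the authors used for counting, assigns a read to a gene only where it overlaps exons of 1 gene, so reads in the shared bases would not be counted for *INS*. How many there were was not tested, and *INS-IGF2* has no row in the table. Counted over the 410 unshared exonic bases, *INS* had 20.3 per kb in place of 13.0 per kb of its longest transcript, which is higher than 29.3% of genes in place of 22.0%. The level of *INS* is uncertain for this reason.

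**Figure D4:**
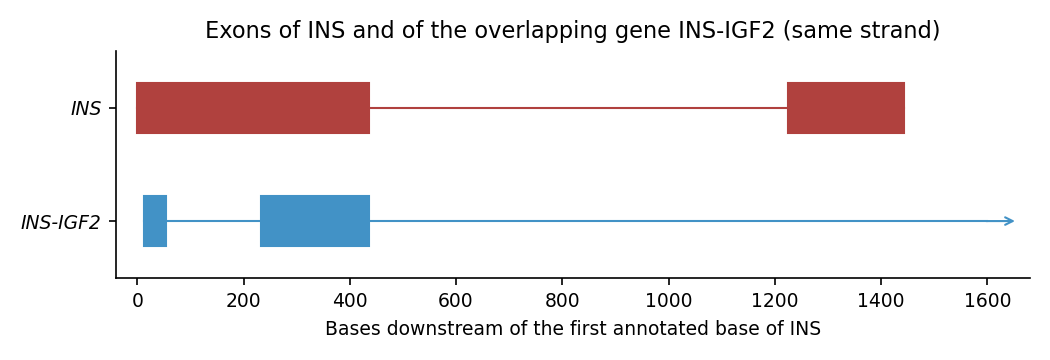
Boxes are exons of *INS* and of *INS-IGF2*, merged over annotated transcripts, drawn to scale in bases downstream of the first annotated base of *INS*, and the arrow marks that *INS-IGF2* continues. Both *INS-IGF2* exons in this stretch, of 42 and 204 bases, fall within the first merged exon of *INS*, and the last exon of *INS* is not shared.

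Of the other genes, *GHRL* (ENSG00000157017, chromosome 3, 10285666 to 10292947) shares 375 of its 2073 exonic bases, or 18.1%, with genes on the opposite strand. The antisense transcript *GHRLOS* covers 288 of them and had a mean normalized count of 29.4, against 60.4 for *GHRL*. *LINC00852*, also opposite, shares 81 bases and had 19.4, and the unlisted ENSG00000272410 shares 49. Whether the counting used strand is not given in the sources used here, and without strand reads in the shared bases cannot be assigned to either gene of a pair. The other 1698 exonic bases of *GHRL* are not shared. *TPH1* (ENSG00000129167, chromosome 11, 18017555 to 18046269) shares 285 bases, 5.03%, with the unlisted ENSG00000255448 on its own strand. No exonic base was shared for *GCG* (chromosome 2, 162142882 to 162152404), *SST* (chromosome 3, 187668912 to 187670394), *IAPP* (chromosome 12, 21354959 to 21379980), *PYY* (chromosome 17, 43952733 to 44004469) or *TTR* (chromosome 18, 31557009 to 31598833). *PPY* (chromosome 17, 43940804 to 43942476), which encodes a relative of peptide YY, lies 10256 bases from *PYY* and shares no exonic base either.

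Other hormone genes of the gut and nervous system were mostly unlisted. Of 15 such genes, 6 have a row and 2 lie above the median per kb. Here and in the lists below, this is the median of all 21861 genes with a length, of which 15359 have a coding sequence. The lists were not set against the median of protein-coding genes alone. *NTS*, which encodes neurotensin, was the highest with 2613 per kb, above *SST*. *GAST*, encoding gastrin, had 130 per kb and *NPY*, encoding neuropeptide Y of the same family as *PYY* and *PPY*, 63.6. *SCT*, *MLN*, *INSL5*, *VIP*, *TAC1*, *UCN3*, *ADCYAP1*, *CALCA* and *GRP* have no row. The share of all annotated genes that have a row was not determined. The counts of listed genes, for the hormone genes and for each list, therefore have no background beside them.

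The genes of precursor maturation, which are enzymes and proteins that regulate them, were all listed, 7 of 7, with 4 above the median per kb. *CPE*, the carboxypeptidase that trims cut precursors, had 22639 per kb, *PAM*, which amidates peptides, 4509, and *PCSK1N*, an inhibitor of the convertase *PCSK1*, 789. The other gene above the median was *SCG5*, a chaperone of *PCSK2*, with 110 per kb. The convertases were far lower. *PCSK1*, which with *PCSK2* cuts proinsulin, had 21.7 per kb, and *PCSK2*, which cuts proglucagon to glucagon, had 3.36. *MBOAT4*, which acylates ghrelin, had 22.6 per kb, beside 42.2 for *GHRL*.

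The regulators of hormone genes were listed for 17 of 17, with 7 above the median per kb. *PDX1*, an activator of the insulin gene that also marks progenitors, had 4969 per kb, *HHEX*, needed for delta cells, 4594, and *RFX6*, needed for islet cells, 1887. *MAFA*, an activator of insulin in mature beta cells, had 41.5 per kb.

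Receptors and coreceptors for these and related hormones were listed for 15 of 19, with 6 above the median per kb. The 6 include coreceptors, which are not receptors by themselves. *RAMP1*, a coreceptor that forms amylin receptors with *CALCR*, had 3985 per kb, *NPY1R*, a receptor for neuropeptide Y and peptide YY, 880, and the insulin receptor *INSR* 546. *CALCR* itself had 2.87 per kb and the ghrelin receptor *GHSR* 4.38. *GLP2R*, *SSTR4*, *SSTR5* and *NPY4R*, the receptor for pancreatic polypeptide, have no row.

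Around *TPH1*, all 12 genes of serotonin synthesis, transport and breakdown and of its cofactor were listed, and 8 lay above the median per kb. The highest were the cofactor genes *PCBD1* with 6754, *SPR* with 1393 and *QDPR* with 1357 per kb, which also serve other hydroxylases. *DDC*, the decarboxylase of the second step, had 864 per kb, against 3.77 for *TPH1* and 1.60 for the neuronal *TPH2*. Around *TTR*, the retinol carrier *RBP4* had 35.3 per kb and the retinol transporter *STRA6* 27.7, and *SERPINA7*, another thyroxine carrier, has no row.

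**Figure D5:**
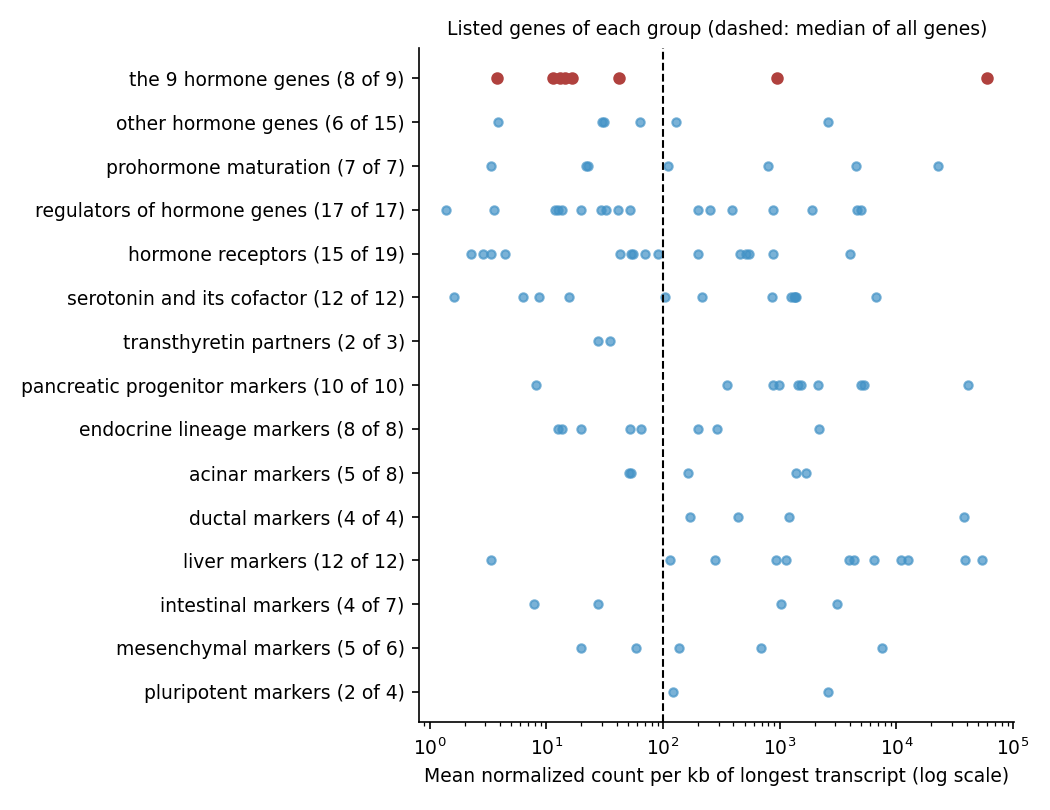
Each point is a listed gene, placed by its mean normalized count per kb of the longest transcript on a log axis, in rows by gene group with the number listed of the number named. The dashed line is the median of all genes, 99.6, and 2 of the 8 hormone genes in the top row lie above it.

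The label of pancreatic progenitors was checked against marker genes. All 10 progenitor markers were listed and 9 lay above the median per kb, led by *GP2* with 40743, *SOX9* with 5259 and *PDX1* with 4969 per kb, while *PTF1A* had 8.10. The endocrine markers were listed for 8 of 8 with 3 above the median, led by *CHGA* with 2172, *NEUROG3* with 289 and *INSM1* with 199 per kb.

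Genes of other cell types were present as well, and their part in the hormone levels was not tested. Of 12 liver markers, 11 lay above the median per kb. *FGA* had 54474, *FGB* 38736, *APOA1* 12507 and *AFP* 10996, beside 59903 for *TTR*. *ALB*, a defining liver gene, had 280, above the median and higher than 64.3% of genes. Only *AHSG*, with 3.35, lay below the median. Of 7 intestinal markers, 4 were listed and 2 lay above the median, *VIL1* with 3105 and *CDX2* with 1031, and *CDX1*, *FABP2* and *MUC2* have no row. All 4 ductal markers lay above it, led by *KRT19* with 37998. Of 8 acinar markers, 5 were listed, led by *PRSS1* with 1686 per kb, and *AMY2A*, *PNLIP* and *CTRB1* have no row. Of 6 mesenchymal markers, 5 were listed, led by *COL1A2* with 7527, and *DCN* has no row. Of 4 pluripotency markers, *LIN28A* had 2599 and *DPPA4* 123 per kb, and *POU5F1* and *NANOG* have no row. Liver and intestine markers overlap with genes that the early gut epithelium expresses.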

How the data were processed

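RNA was sequenced after poly(A) selection from 18 samples in 6 groups of 3. According to the study's methods, the authors used STAR for alignment to GRCh38.p13 and for counts per gene of GENCODE v32, and then fitted DESeq2; the submitters' processing notes give hg38, STAR 2.7.2d and DESeq2 1.34.0. The deposited table holds 1 signal per gene that the authors made, the mean over samples of counts divided by size factors, and 5 columns of the authors' comparisons of LN411 with FN (fold change, its standard error, statistic, p-value and adjusted p-value), which were not used. No value of a single sample was used, so the count test planned for LN411 against FN was not run.

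Rows were matched by symbol and gene identifier. Lengths, positions and shared exons came from GENCODE v44 on GRCh38, found for 99.6% of listed genes. This is the assembly the authors used with a newer annotation, so lengths can differ from theirs. Upstream windows came from RefSeq. A mean under 10 was set as low. The hormone genes and gene lists were chosen with earlier results of these data known. Named genes are all 9 hormone genes, the 3 highest genes per kb and the unlisted genes of each list, and genes that share exons with a hormone gene. *PCSK1*, *PCSK2*, *SCG5*, *MBOAT4*, *MAFA*, *CALCR*, *GHSR*, *DDC*, *TPH2*, *PTF1A*, *ALB*, *AFP* and *AHSG* were named after their values were seen. Ranks and shared bases were tested on simulated data. Calculations used Python 3.11.15, numpy 2.4.6 and pandas 2.3.3.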

Additional observations from a re-analysis of the deposited data

How the results depend on the processing

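With listing at any time in place of all 3 times, the number of hormone genes with a row was 8 in place of 5. With limits of 5, 50 and 100 on the mean normalized count in place of 10, the number of genes with a low mean was 0, 5 and 6 in place of 1, against 1.42%, 33.5% and 40.2% of all listed genes. The number above the median per kb was 2 under each alternative. These were the union of exons, the coding sequence, the unshared exonic bases, the median of protein-coding genes and genes listed at all times. They were applied to the hormone genes and not to the other gene lists. No paired analysis was possible because the values used hold no single samples, and for the same reason the normalizations, count filters and omissions of single replicates planned for LN411 against FN were not run. The mean normalized counts of all listed genes sum to 53217583. The depth of single libraries is unknown, which limits what can be said of the genes with means under 20, *INS*, *GCG* and *PYY*.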
